A study of Homo sapiens with 4 samples.

Results

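The BCL2 family decides whether a cell's mitochondria release the proteins that start apoptosis. Anti-apoptotic members (BCL2, BCL2L1 and MCL1) hold the effectors BAX and BAK1 in check, and the effectors open the outer mitochondrial membrane when they are free to act. The BH3-only members (BID, BAD, BIK, BBC3 and PMAIP1) report damage or withdrawn growth signals to the other members, by binding the anti-apoptotic proteins or by activating the effectors directly. In colorectal cancer this balance is known to bear on the response to DNA damage, since BBC3 (PUMA), PMAIP1 (NOXA) and BAX are targets of p53, which HCT116 cells carry in wild-type form.

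These 10 genes were chosen by name, from the gene names that the array files give to probes that are not controls. They had 19 probes, printed as 55 spots, among 41000 probes with 30982 gene names on each array. The study compared HCT116, an established human colon cancer line, after stable expression of an shRNA against N-BLR, a primate-specific long non-coding RNA, with HCT116 carrying an empty vector. The 2 stable lines, clones #3-1 and #4-7, were each hybridised on 2 Agilent 2-colour arrays against the empty vector control, and by their titles the 2 arrays of a clone are biological replicates. By the labels, Cy5 carried the shRNA clone and Cy3 the empty vector control on all 4 arrays, with no exchange of dyes. Each shRNA line is 1 clone, so a property of the clone and an effect of the shRNA cannot be told apart. The labels speak of lentivirus and the methods of transfection with selection of clones, and no age or treatment other than the vectors is given. No probe bears the name N-BLR, so the level of the targeted RNA was not analysed here.

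All 4 arrays came from 1 slide and 1 scan, and between 68.5% and 72.6% of the probe spots were well above background in a channel. Of 9 colon epithelium markers, 8 were well above background in both channels on all arrays, and VIL1, which encodes villin, was on none. Of 8 markers of blood, vessel, stroma, red cells and liver, CD3E and COL1A1 were above background in both channels on all arrays, and 4 were on none. In bulk RNA, a change in every cell and a change in some of the cells cannot be told apart.

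Values of the channels that go against the labels come before the results. CDH1 (E-cadherin, which joins epithelial cells) was lower in Cy5 than in Cy3 by a log2 ratio of -2.60 on the arrays of clone #3-1 and -1.34 on those of clone #4-7, and its ratios were -2.61, -2.59, -1.37 and -1.32 on the single arrays. VIM (vimentin, a mesenchymal filament protein) was higher in Cy5, with mean log2 ratios of 4.45 and 2.39 by probe A_23_P161190. With Cy5 read as the shRNA clone, as the labels have it, these directions are opposite to those the study describes for its clones. The study reports higher E-cadherin and lower vimentin in both clones from its arrays, qRT-PCR and immunofluorescence, and shows a western blot of E-cadherin.

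The channels also differed in how far they set the clones apart. By the labels, Cy3 held the empty vector control throughout, and Cy5 held the clone. Over 26882 probes well above background in both channels on all arrays, the normalized Cy5 level differed between the arrays of the 2 clones by a median of 0.057 on the log2 scale, against 0.067 and 0.047 between the 2 arrays of the same clone. The Cy3 level differed between the clones by a median of 0.220, against 0.065 and 0.047 between arrays of the same clone. Cy3 differed by at least 1.5-fold at 13.7% of these probes and Cy5 at 0.636%. After background correction and centring alone, with no dye normalization, the medians between clones were 0.135 in Cy5, where the 2 arrays of clone #4-7 themselves differed by 0.206, and 0.212 in Cy3, where arrays of the same clone differed by 0.065 and 0.043. Which RNA each dye held was not tested. Ratios below are accordingly of Cy5 over Cy3 and called higher or lower in Cy5, the clone names stand for the arrays so labelled, and every sign turns if the dyes were exchanged.

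The sequences of 4 probes are shown, because the results at their genes differ by transcript or by probe. The capitals mark runs of 6 or more G or C, and positions are on hg17, as in the files.
MCL1 A_24_P319635 (chr1:147363811-147363870, minus strand): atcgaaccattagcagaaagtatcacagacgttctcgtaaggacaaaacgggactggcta
BAX A_23_P346311 (chr19:54150770-54150829, plus strand): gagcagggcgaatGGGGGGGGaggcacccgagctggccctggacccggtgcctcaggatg
BBC3 A_23_P90189 (chr19:52423274-52423333, minus strand): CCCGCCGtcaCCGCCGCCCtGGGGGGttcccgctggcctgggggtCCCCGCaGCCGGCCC
BBC3 A_24_P305312 (chr19:52416927-52416986, minus strand): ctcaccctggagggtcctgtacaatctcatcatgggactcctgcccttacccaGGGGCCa
For the MCL1 probe the files list the long, anti-apoptotic transcript alone among RefSeq entries, while they list the long and the short transcript for the other MCL1 probes. The BAX probe spans a run of 8 G, and a run of G in BAX is known to be often altered in mismatch repair-deficient colorectal cancers. The first BBC3 probe has a GC content of 85% and the second 60%, against a median of 41.7% over all probes of the array.

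**Figure D1:**
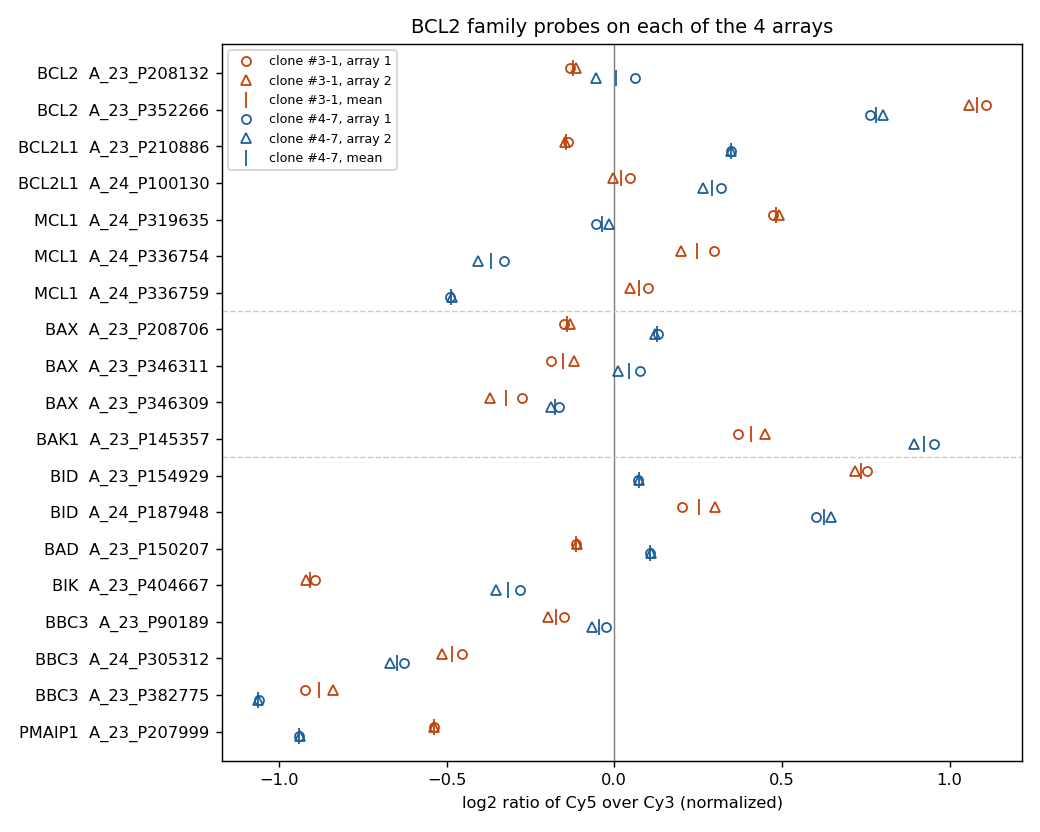
Normalized log2 ratio of Cy5 over Cy3 (horizontal axis) for each of the 19 probes (rows), with a circle and a triangle for the 2 arrays of a clone and a bar for their mean. Dashed lines divide the anti-apoptotic genes, the effectors and the BH3-only genes. BBC3 A_23_P382775 and PMAIP1 lie farthest left for clone #4-7, at -1.06 and -0.94, and BCL2 A_23_P352266 lies farthest right for clone #3-1, at 1.08.

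On the arrays of clone #3-1, 5 of the 19 probes (26.3%) were higher in Cy5 at a limma p under 0.001, the threshold that the study's methods name, against 16.3% of all probes, and 5 (26.3%) were lower, against 16.4%. On the arrays of clone #4-7, 5 probes (26.3%) were higher, against 16.1%, and 6 (31.6%) were lower, against 15.0%. With a change of at least 1.5-fold required as well, 2 probes were higher (10.5%, against 3.79%) and 2 lower (10.5%, against 4.45%) on the arrays of clone #3-1. The same rule held for 3 probes higher (15.8%, against 3.22%) and 3 lower (15.8%, against 4.14%) on the arrays of clone #4-7. The median log2 ratio of the 19 probes was -0.12 and 0.00 for the 2 clones, beside medians of 0.01 and 0.01 over all 41000 probes. The median size of their log2 ratio, with its sign set aside, was 0.25 and 0.32, beside 0.14 and 0.13 over all probes. Values over all probes include dim probes, while 18 of the 19 family probes were above background in both channels on all arrays. Keeping only probes well above background gave 15577 calls over the array for clone #3-1 and 14962 for clone #4-7. Over all probes the calls were 13396 and 12738. Family calls were then 6 higher and 6 lower for clone #3-1, and 5 and 6 for clone #4-7. Fewer probes over the array thus gave more calls, so a larger share of the probes kept was called than of all probes. The gaps to the shares over all probes are therefore not gaps to equally bright probes. The part of brightness in these gaps was not tested.

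Among the anti-apoptotic genes, BCL2 was measured by a pair of probes for different transcripts. The probe for the alpha transcript (A_23_P352266, chr18:58941703-58941762, 10 spots per array) gave log2 ratios of 1.11 and 1.06 on the arrays of clone #3-1 and 0.76 and 0.80 on those of clone #4-7. All 4 values were positive and the clones did not overlap. In Cy3 this probe was well above background on 1 and 2 of its 10 spots on the arrays of clone #3-1 and on 10 and 8 spots on those of clone #4-7, while in Cy5 it was so on all 10 spots of every array. The mean ratio of 1.08 for clone #3-1 is 2.12-fold (limma, adjusted p = 1.9e-05), but with Cy3 not well above background it sets only a lower limit, which moves with the scaling of the channels. With the channels scaled by Aquantile after loess, the mean levels were 7.94 in Cy5 and 6.77 in Cy3, which gives at least 2.24-fold higher in Cy5. For clone #4-7 it was 1.72-fold higher (adjusted p = 4.7e-05), and with Feature Extraction's own processed signals the log2 ratio was 1.81. The probe for the beta transcript (A_23_P208132, chr18:59136115-59136150) gave log2 ratios of -0.13, -0.11, 0.06 and -0.05. Its mean ratios did not pass the threshold in either clone.

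BCL2L1 encodes BCL-xL and, by splicing, the shorter BCL-xS. The probe listed for both transcripts (A_23_P210886, chr20:29716985-29717044, 10 spots) gave log2 ratios of -0.14 and -0.15 on the arrays of clone #3-1 and 0.35 and 0.35 on those of clone #4-7. It was 1.27-fold higher in Cy5 for clone #4-7 (limma, adjusted p = 3.1e-04) and did not pass the threshold for clone #3-1. The probe listed for transcript variant 2 (A_24_P100130, chr20:29773576-29773635) gave 0.05, 0.00, 0.32 and 0.27. It was near 0 for clone #3-1 and passed the threshold for clone #4-7 (limma, adjusted p = 0.001). The call for clone #4-7 was lost under 7 of 15 alternative settings. Whether this probe tells the 2 transcripts apart was not tested.

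MCL1, a short-lived protein that is lost early in many forms of apoptosis, had 3 probes. The long-transcript probe printed above gave log2 ratios of 0.47 and 0.49 on the arrays of clone #3-1 and -0.06 and -0.02 on those of clone #4-7. It was 1.40-fold higher in Cy5 for clone #3-1 (limma, adjusted p = 1.2e-04). The probes listed for both transcripts lay lower. A_24_P336754 (chr1:147360301-147360360) gave 0.30, 0.20, -0.33 and -0.41, and A_24_P336759 (chr1:147360695-147360754) gave 0.10, 0.05, -0.49 and -0.48. For clone #4-7 both were lower in Cy5, 1.29-fold and 1.40-fold (adjusted p = 9.2e-04 and 1.4e-04). The 3 probes thus lay 0.41 apart for clone #3-1 and 0.45 apart for clone #4-7 and kept the same order in both. Over 4113 genes with at least 2 probes above background, the highest and lowest probes of a gene lay a median of 0.20 and 0.19 apart. These genes were not matched to MCL1 in their number of probes, with which such a distance grows.

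Among the effectors, BAX had 3 probes and small ratios. A_23_P208706 (chr19:54156716-54156775, 10 spots) gave log2 ratios of -0.15, -0.13, 0.13 and 0.12, and the probe over the run of G gave -0.19, -0.12, 0.08 and 0.01. Neither passed the threshold in a clone. A_23_P346309 (chr19:54150541-54150600) gave -0.27, -0.37, -0.17 and -0.19, and for clone #3-1 it was 1.25-fold lower in Cy5 (limma, adjusted p = 9.3e-04).

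BAK1 was higher in Cy5 on every array. Its probe (A_23_P145357, chr6:33648563-33648622) gave log2 ratios of 0.37 and 0.45 on the arrays of clone #3-1 and 0.95 and 0.89 on those of clone #4-7. These are ratios of 1.33-fold (limma, adjusted p = 4.0e-04) and 1.90-fold (adjusted p = 4.2e-05). The call for clone #3-1 was lost under 5 of 15 alternative settings.

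Among the BH3-only genes, BBC3 and PMAIP1 were lower in Cy5 on every array. BBC3 encodes PUMA, which binds all the anti-apoptotic members. Its probe A_23_P382775 (chr19:52416014-52416073) gave log2 ratios of -0.92 and -0.84 on the arrays of clone #3-1 and -1.06 and -1.06 on those of clone #4-7, which is 1.84-fold and 2.09-fold lower in Cy5 (limma, adjusted p = 3.4e-05 and 2.9e-05). The probe A_24_P305312, printed above and 853 bases away in the genome, gave -0.45, -0.51, -0.63 and -0.67, or 1.40-fold and 1.57-fold lower (adjusted p = 1.6e-04 and 7.6e-05). The GC-rich probe A_23_P90189 gave -0.15, -0.20, -0.02 and -0.07 and passed the threshold in neither clone. The 3 probes of BBC3 were of the same sign on all arrays and differed in size, by 0.71 for clone #3-1 and 1.02 for clone #4-7. The part of GC content in this spread was not tested.

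PMAIP1 encodes NOXA, which binds MCL1 and promotes its removal. Its probe (A_23_P207999, chr18:55721258-55721317, 10 spots) gave log2 ratios of -0.54 and -0.54 on the arrays of clone #3-1 and -0.94 and -0.94 on those of clone #4-7. These are 1.45-fold and 1.92-fold lower in Cy5 (limma, adjusted p = 7.4e-05 and 2.5e-05).

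BIK, a BH3-only protein that acts at the endoplasmic reticulum, was also lower in Cy5. Its probe (A_23_P404667, chr22:41849993-41850052) gave log2 ratios of -0.89 and -0.92 on the arrays of clone #3-1 and -0.28 and -0.35 on those of clone #4-7, or 1.87-fold and 1.24-fold lower (limma, adjusted p = 2.9e-05 and 7.9e-04). Here the larger ratio was that of clone #3-1, while for BBC3 A_23_P382775 and PMAIP1 it was that of clone #4-7.

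BID links the death receptors to the mitochondria once it is cleaved by caspase 8. Its 2 probes lie 84 bases apart in the genome, and the files list the same transcripts for both. A_23_P154929 (chr22:16592592-16592651) gave log2 ratios of 0.75 and 0.72 on the arrays of clone #3-1 and 0.07 and 0.07 on those of clone #4-7, and was 1.67-fold higher in Cy5 for clone #3-1 (limma, adjusted p = 3.6e-05). A_24_P187948 (chr22:16592736-16592795) gave 0.20 and 0.30, then 0.60 and 0.65, and was 1.54-fold higher for clone #4-7 (adjusted p = 1.2e-04). All 8 ratios were positive, but the probes gave opposite orders of the clones, so no order of the clones is given for BID.

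BAD, whose activity is set mainly by phosphorylation, gave log2 ratios of -0.11, -0.11, 0.11 and 0.11 (A_23_P150207, chr11:63794098-63794157). It did not pass the threshold in either clone.

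**Figure D2:**
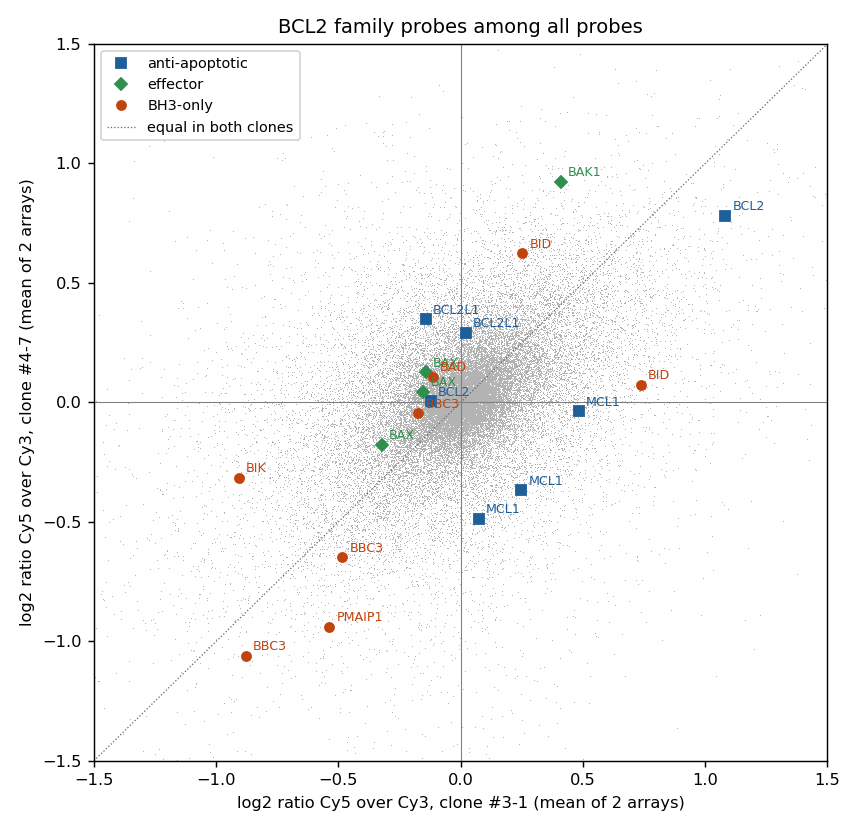
Mean log2 ratio of Cy5 over Cy3 on the 2 arrays of clone #3-1 (horizontal axis) against that of clone #4-7 (vertical axis), both limited to -1.5 to 1.5, with 1 grey dot per probe of the array and coloured symbols for the 19 BCL2 family probes. BBC3 (2 of its 3 probes), PMAIP1 and BIK lie in the lower left and BAK1 and 1 BCL2 probe in the upper right. The clones share the control of the labels, so nearness to the dotted line is a description.

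The ratios of the 2 clones were then compared with each other, in the same limma fit. The difference, clone #3-1 minus clone #4-7, passed the threshold for 11 of the 19 probes (57.9%), against 22.6% of all probes. Of these, 6 probes (31.6%, against 11.0%) had the higher ratio for clone #3-1 and 5 (26.3%, against 11.6%) the lower. With at least 1.5-fold required as well, 2 probes (10.5%, against 4.21%) were higher for clone #3-1 and 1 (5.26%, against 4.39%) was lower. The shares of all probes again include dim probes. With only probes well above background kept, the difference passed for 13 family probes, and for 11522 probes over the array in place of 9268. Fewer probes over the array thus gave more calls, so the share among the probes kept was above 22.6%.

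The probes with the higher ratio for clone #3-1 were the 3 of MCL1, BID A_23_P154929, PMAIP1 and BCL2 A_23_P352266. The MCL1 differences were 0.52 ± 0.04, 0.61 ± 0.06 and 0.56 ± 0.04 (log2, limma SE, n = 2 arrays per clone, adjusted p = 5.4e-04, 8.0e-04 and 4.7e-04). BID A_23_P154929 differed by 0.66 ± 0.04 (limma, adjusted p = 2.6e-04), which is 1.58-fold. PMAIP1 differed by 0.40 ± 0.04 (adjusted p = 0.001). BCL2 A_23_P352266 differed by 0.30 ± 0.04 (adjusted p = 0.0041), but its Cy3 signal for clone #3-1 was not well above background, and the difference ran up to 1.28 with Feature Extraction's processed signals.

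The probes with the lower ratio for clone #3-1 were BIK, BAK1, BCL2L1 A_23_P210886, BID A_24_P187948 and BAX A_23_P208706. BIK differed by -0.59 ± 0.05 (limma, adjusted p = 5.0e-04) and BAK1 by -0.51 ± 0.05 (adjusted p = 0.001). BCL2L1 differed by -0.49 ± 0.04 (adjusted p = 5.4e-04), and on the array level its ratio was negative for clone #3-1 and positive for clone #4-7. BID A_24_P187948 differed by -0.37 ± 0.05 and BAX A_23_P208706 by -0.27 ± 0.04 (adjusted p = 0.0033 and 0.0042). These 2 calls and that of BCL2 A_23_P352266 were each lost under 10 of the 14 alternative settings, among them, for BAX and BCL2, the replicate number as a block. The call of PMAIP1 was lost under 7 of the 14, that of BAK1 under 4 and those of the MCL1 probes under 2 or 3. BIK and BCL2L1 A_23_P210886 each lost theirs under 1, and BID A_23_P154929 under none. For the 8 probes that did not pass, the 95% intervals reached from -0.39 for BCL2L1 A_24_P100130 to 0.30 for BBC3 A_23_P382775, the bounds that these arrays set on them. Only the interval of BCL2 A_23_P208132 (-0.26 to 0.0086) included 0, and the others lay wholly on one side of it.

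**Figure D3:**
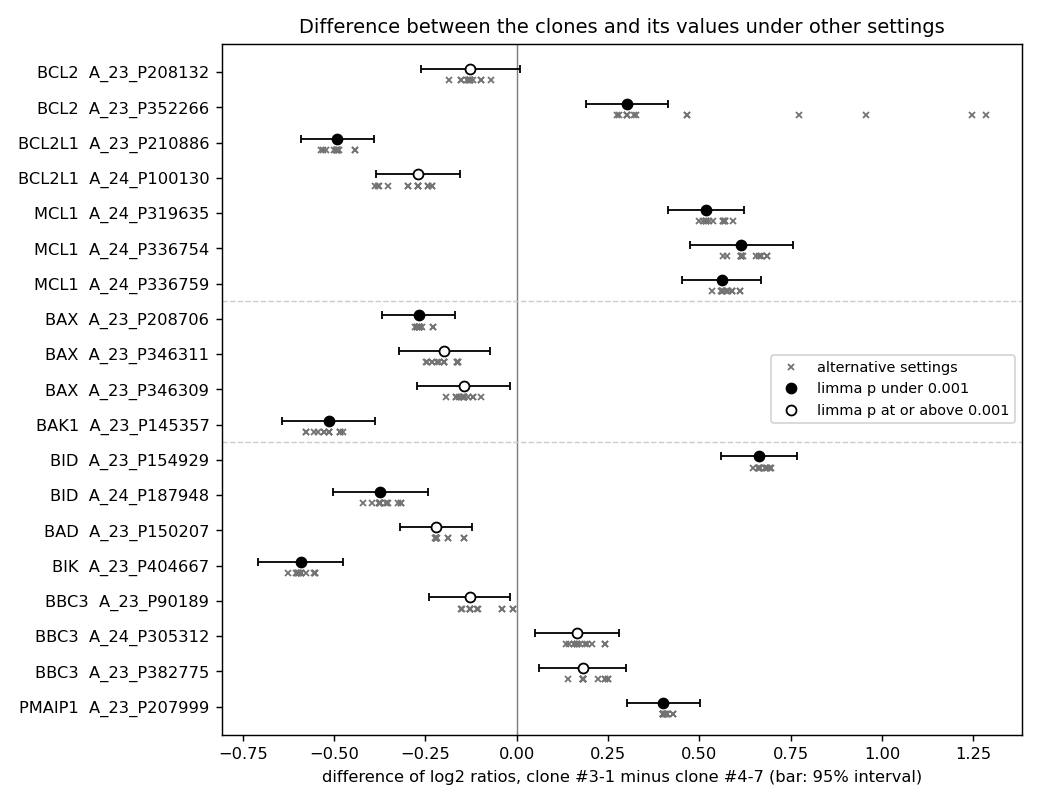
Difference of the log2 ratios, clone #3-1 minus clone #4-7 (horizontal axis), for each probe (rows), with its 95% interval from limma. Filled circles had a p under 0.001 (11 probes), open circles did not, and crosses give the same difference under the alternative settings. BCL2 A_23_P352266 moved the most, from 0.30 up to 1.28.

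These differences were laid out by channel. Of the 18 probes above background in both channels on all arrays, 16 differed more between the clones in Cy3 than in Cy5, beside 82.3% of the 26882 probes of this kind on the array. The median difference of the 18 probes, with sign set aside, was 0.30 in Cy3 and 0.05 in Cy5. BIK stood at 11.72, 11.75, 11.77 and 11.75 in Cy5 on the log2 scale, and at 12.62 and 12.67 in Cy3 for clone #3-1 but 12.05 and 12.11 in Cy3 for clone #4-7. BAK1 stood at 11.92, 11.99, 12.00 and 11.91 in Cy5, and in Cy3 at 11.55 and 11.54 for clone #3-1 and 11.05 and 11.02 for clone #4-7. MCL1 A_24_P336759 stood between 11.14 and 11.27 in Cy5 on all arrays, and in Cy3 at 11.17 and 11.13 for clone #3-1 and 11.75 and 11.63 for clone #4-7. For BAK1 and this MCL1 probe the arrays of the clones overlapped in Cy5, for BIK they met at 11.75. For all 3 of these probes they were apart in Cy3. Other probes were apart in Cy5 as well. MCL1 A_24_P319635 stood there at 9.779 and 9.798 for clone #3-1 and 9.715 and 9.747 for clone #4-7. PMAIP1 and BID A_23_P154929 were also apart in Cy5. For PMAIP1 the difference was 0.12 in Cy5 and -0.28 in Cy3, and for BID A_23_P154929 it was 0.14 and -0.53. Without dye normalization, 17 of the 18 probes differed more in Cy3, beside 61.3% of all such probes. By the labels these Cy3 values are all of the empty vector control, and whether they were was not tested.

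**Figure D4:**
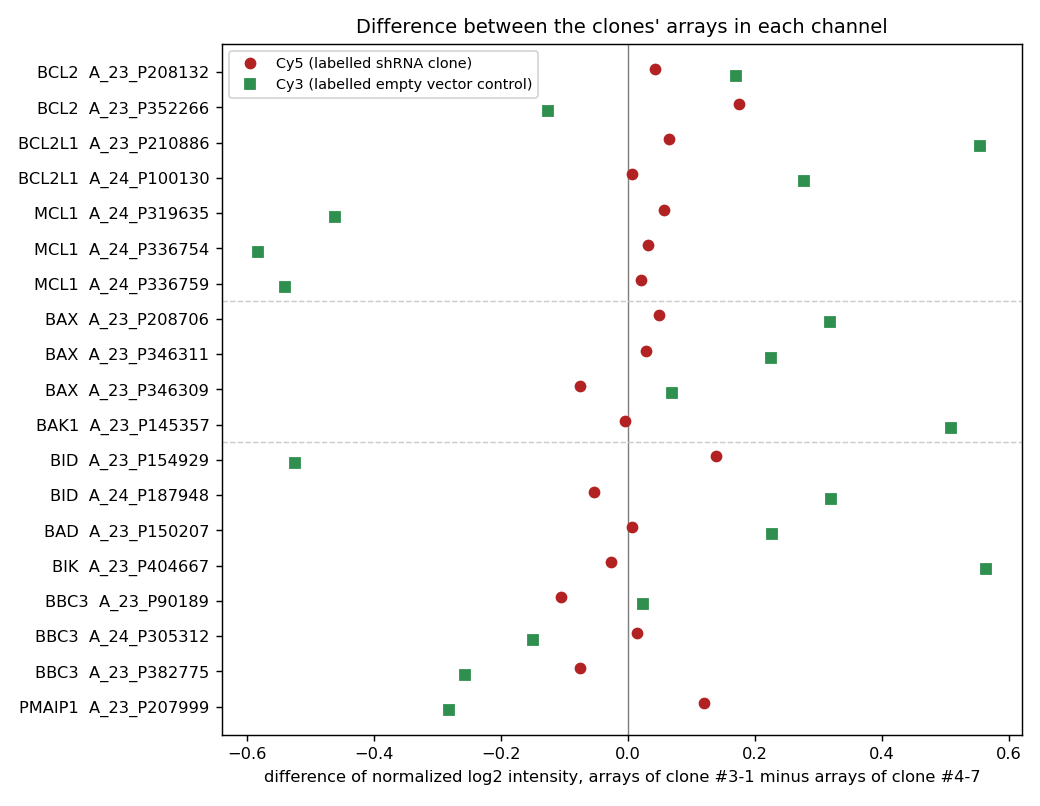
Difference of the normalized log2 intensity between the arrays of clone #3-1 and those of clone #4-7 (horizontal axis) for each probe (rows), with circles for Cy5 and squares for Cy3. The circles of the 18 probes above background lie within 0.14 of 0, while the squares reach 0.58 from 0.

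The nearest pattern to BBC3 A_23_P382775, the probe above background with the smallest p of a joint limma F test over both clones, was looked for among 17403 probes with a RefSeq gene, by the distance of the log2 ratios over the 4 arrays. DEPP1, a FOXO target (0.09), RCAN2, a calcineurin regulator (0.10), and FUCA1, a lysosomal fucosidase (0.14), were the nearest genes. DEPP1 gave -0.94, -0.91, -1.02 and -1.10 on the 4 arrays.

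The other genes of the pathway were taken from 3 lists. Among 20 probes of 11 other BCL2 family genes, 4 (20%) were higher and 5 (25%) lower in Cy5 for clone #3-1, beside 16.3% and 16.4% of all probes. For clone #4-7, 1 (5%) was higher and 5 (25%) lower, beside 16.1% and 15.0%. Their median log2 ratios were -0.02 and -0.02. BCL2L2 (BCL-w, anti-apoptotic) gave mean ratios of -0.33 and -0.28 for the 2 clones and BMF, a BH3-only gene, -0.38 and -0.28, both lower in Cy5, while BCL2L12 was higher, at 0.32 and 0.38. BCL2L11 encodes BIM, a BH3-only protein like PUMA, and its 4 probes disagreed for clone #4-7. A_23_P309996 gave 0.24 for clone #3-1 and -0.40 for clone #4-7 (limma, adjusted p = 0.001 for the difference), A_23_P154426 gave 0.02 and -0.20, A_23_P309991 gave 0.40 and 0.05, and A_23_P425954 gave 0.48 and 0.20. All 4 had the higher ratio for clone #3-1, and the difference passed the threshold for A_23_P309996 and A_23_P309991. BCL2L13 A_24_P409494 gave -0.80 and -0.15 (limma, adjusted p = 5.3e-04 for the difference), while its other probes gave -0.39 and -0.03 (A_23_P102965) and -0.21 and 0.10 (A_24_P410389), with differences that did not pass the threshold.

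Among 22 probes of 14 genes of the mitochondrial death pathway outside the BCL2 family, 1 (4.55%) was higher and 4 (18.2%) lower in Cy5 for clone #3-1, and 5 (22.7%) were higher and 5 (22.7%) lower for clone #4-7, beside the same shares of all probes (16.3%, 16.4%, 16.1% and 15.0%). HTRA2, a protease released from mitochondria, gave -0.74 and -0.31. CASP8, for the caspase that cleaves BID, gave -0.29 and -0.31 by A_23_P209389, -0.04 and -0.41 by A_24_P157087, and -0.05 and -0.09 by A_24_P148499, so 1 of its 3 probes passed the threshold for clone #3-1 and 2 for clone #4-7. ENDOG, a mitochondrial nuclease, gave -0.62 for clone #3-1 and -0.02 for clone #4-7 (limma, adjusted p = 0.001 for the difference). The 3 probes of CYCS (cytochrome c, which starts the caspase cascade in the cytosol) disagreed. A_24_P29665 gave -0.99 and -2.56, A_32_P174083 gave 0.12 and -1.33, and A_24_P376556 gave 0.31 and 0.33. No direction is given for CYCS, a gene with many near-identical pseudogene copies.

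Among 17 probes of 10 regulators, 5 (29.4%) were higher and 6 (35.3%) lower in Cy5 for clone #3-1, and 7 (41.2%) were higher and 4 (23.5%) lower for clone #4-7, beside 16.3%, 16.4%, 16.1% and 15.0% of all probes. CDKN1A, the p21 cell cycle inhibitor and a p53 target, passed the threshold in opposite directions in the 2 clones, and its 2 probes gave -0.76 and -0.67 for clone #3-1 and 0.66 and 0.63 for clone #4-7 (limma, adjusted p of the difference = 4.9e-05 and 4.7e-05). MDM2, which targets p53 for degradation, gave 0.40 and 0.51 by A_23_P502750 and 0.04 and 0.00 by A_23_P309545. DDIT3 (CHOP), a stress-induced factor known to raise several BH3-only genes, was higher in Cy5, at 1.20 and 0.40 (limma, adjusted p = 1.7e-04 for the difference). E2F1, a cell cycle factor, gave 0.91 and 0.10 (limma, adjusted p = 1.4e-04 for the difference). The 3 probes of HUWE1, a ubiquitin ligase of MCL1, were lower in Cy5, between -0.40 and -0.33 for clone #3-1 and between -0.26 and -0.24 for clone #4-7.

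**Figure D5:**
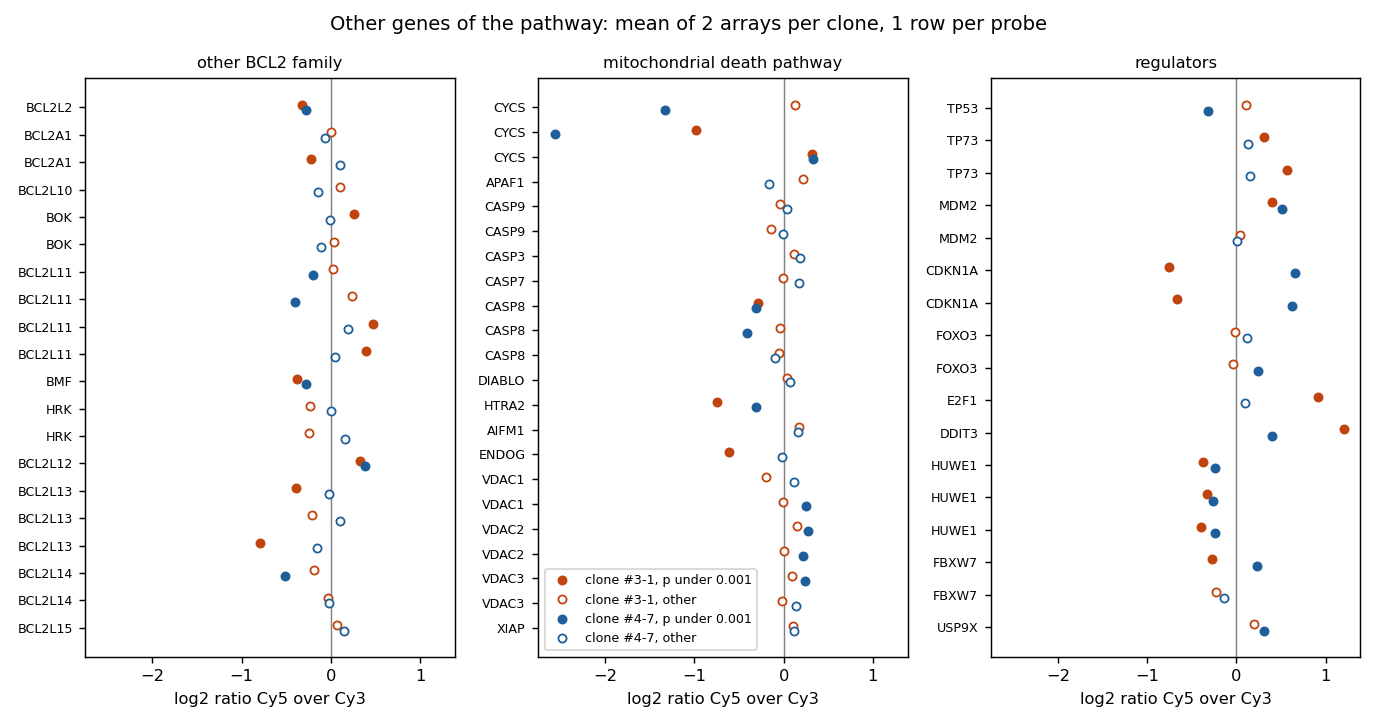
Mean log2 ratio of Cy5 over Cy3 (horizontal axis) of the probes of the other pathway genes (1 row per probe, 3 lists), in orange for clone #3-1 and blue for clone #4-7. Filled circles had a limma p under 0.001. CDKN1A lies on opposite sides of 0 in the 2 clones, and the 3 CYCS probes lie apart.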

How the data were processed

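RNA of the HCT116 lines was hybridised to 4 Agilent 2-colour arrays. The authors deposited, per the file headers, the scanned mean intensity of each spot and the median intensity of the local background, for Cy5 and Cy3, together with Feature Extraction's processed intensity (background-subtracted and dye-normalized) and its log10 ratio of Cy5 over Cy3. They also deposited a table of log10 ratios, whose values lay within 0.005 of those in the scanner file of the same sample. Feature Extraction has version 9.5.3.1 in the headers and 8.5.1.1 in the submitters' processing notes. Arrays have no read depth, and their number sets the precision.

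With R 4.3.3 and limma 3.58.1, spot intensities were background-corrected (normexp, offset 50), normalized by loess within and by quantiles between arrays, and averaged per probe, without control spots and outlier spots (87 to 125 per array). Saturated spots were kept, and none of the 19 probes was saturated. A linear model with 1 coefficient per clone was then fitted over all 41000 probes, with empirical Bayes statistics. A call is an unadjusted p under 0.001, the threshold in the study's methods, and adjusted p are Benjamini-Hochberg values over all probes. Each ratio against 0 is a test within a pair of channels on 2 arrays, so it leaves out the control's own spread. At the same spot, the 2 arrays of a clone had a median SD of 0.038 and 0.037 (log2). Over the spots of a probe printed 10 times within an array it was 0.056. The SE and p thus measure the spread between arrays of the same clone on 1 slide, not between independent clones. A probe was well above background on an array where more than 0.5 of its spots were flagged so.

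The genes were named as in the files, 17 of the 19 probes' accessions matched a RefSeq transcript and all 10 symbols matched, and sequences came from the scanner files. The members and the lists were chosen with earlier results of these data known. From the lists, genes were named where a probe passed the threshold with the same sign in both clones, or where the clones differed past it by at least 1.5-fold. Deviations of arrays with the same replicate number correlated at -0.013, so numbers were not taken as pairs. Alternatives covered background correction, normalization, the deposited processed values, dim probes, the variance prior, the call rule, the replicate number as a block, separate fits and leaving out each array.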

Additional observations from a re-analysis of the deposited data

Results flagged for a closer look

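The log2 ratio of Cy5 over Cy3 differed between the clones, by limma's test of the difference at an unadjusted p under 0.001, for 11 of the 19 BCL2 family probes (57.9%). This stood beside 22.6% of all probes, dim ones included. With only probes well above background kept, 13 family probes passed. Over the array 11522 probes then passed in place of 9268, a larger share of fewer probes. As clone #3-1 minus clone #4-7, the differences were 0.66 for BID A_23_P154929, 0.61 for MCL1 A_24_P336754, 0.56 for MCL1 A_24_P336759, 0.52 for MCL1 A_24_P319635, 0.40 for PMAIP1 A_23_P207999 and 0.30 for BCL2 A_23_P352266. They were -0.59 for BIK A_23_P404667, -0.51 for BAK1 A_23_P145357, -0.49 for BCL2L1 A_23_P210886, -0.37 for BID A_24_P187948 and -0.27 for BAX A_23_P208706. For BCL2 A_23_P352266, Cy3 was well above background on 1 and 2 of 10 spots on the arrays of clone #3-1, and the difference ran up to 1.28 with processed signals. The BID probes pointed opposite ways. In 10 of these 11 probes the difference was larger in Cy3, labelled as the empty vector control, than in Cy5, labelled as the clone. In BCL2 A_23_P352266 it was larger in Cy5. Over the 26882 probes above background in both channels on all arrays, 82.3% had the larger difference in Cy3. The part of the channel labels in these differences was not tested.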

How the results depend on the processing

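Each value of the 19 probes was recomputed under up to 15 alternatives. Of 836 values (a probe's ratio in a clone or its difference between the clones, under an alternative), 699 kept their direction and their side of the threshold, 95 no longer passed it, 36 newly passed it and 6 changed sign. The changes of sign lay near 0. The ratio of BCL2 A_23_P208132 for clone #4-7 was -0.021 with processed signals, -0.021 in the deposited table, -0.024 with Aquantile or no normalization between arrays, and between -0.054 and 0.062 with 1 of that clone's arrays left out (-0.054 without replicate 1). That of BCL2L1 A_24_P100130 for clone #3-1 lay between -0.0049 and 0.048 with 1 of its arrays left out (-0.0049 without replicate 1). BID A_23_P154929 passed the threshold of the difference under all 14 alternatives run for it. BCL2 A_23_P352266, BAX A_23_P208706 and BID A_24_P187948 each lost it under 10, PMAIP1 under 7 and BAK1 under 4. Of the calls for clone #3-1, BID A_24_P187948 lost its under 10 of 15, BAK1 and BAX A_23_P346309 under 5, and MCL1 A_24_P319635 under 2. For clone #4-7, BCL2L1 A_24_P100130 lost its under 7, BIK and MCL1 A_24_P336754 under 5, and BCL2L1 A_23_P210886 under 3. MCL1 A_24_P336759 and BID A_24_P187948 lost theirs for clone #4-7 under 1. The other calls in a clone were kept throughout. The causes were not tested.

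The number of family probes that differed between the clones, 11, was 5 with a normexp offset of 0, 3 with plain subtraction, 6 with processed signals and 4 in the deposited table, and it was 7, 7, 6 and 7 without clone #3-1 replicate 1, clone #3-1 replicate 2, clone #4-7 replicate 1 and clone #4-7 replicate 2. Over all 41000 probes the number that differed fell as well, from 9268 to 4327, 3450, 4828 and 5946 under the first 4 of these settings, and to between 5119 and 5609 with 1 array left out. The family's number rose to 16 with an intensity trend in the prior and to 16 at an adjusted p under 0.05. Over all probes it rose to 15107 and 17393 under these settings. For clone #3-1, the 5 higher probes were 3 with an offset of 0, 3 with plain subtraction, 2 with processed signals, 2 in the deposited table and 3 to 4 with 1 array left out (3 without clone #3-1 replicate 2). The 5 lower probes were 11 with an intensity trend in the prior, 11 at an adjusted p under 0.05 and 4 to 5 with 1 array left out. For clone #4-7, the 5 higher probes were 3 in the deposited table and 3 to 5 with 1 array left out (3 without either array of clone #4-7), and the 6 lower were 4 to 6 with 1 array left out.

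With the replicate number as a block, 9 family probes differed between the clones, in place of 11, and 4 in place of 5 were higher for clone #3-1. The calls lost were the differences of BCL2 A_23_P352266 and BAX A_23_P208706 and the clone #3-1 ratio of BID A_24_P187948.

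For the other pathway genes the alternatives were chosen after seeing the data. Their 10 higher probes for clone #3-1 were 6 with plain subtraction, 6 with processed signals, 18 with the trend, 20 at the adjusted p and 5 to 10 with 1 array left out. The 15 lower were 8 with an offset of 0, 7 with subtraction and 9 to 14 with 1 array left out. For clone #4-7, the 13 higher were 6 with an offset of 0, 4 with subtraction, 4 with processed signals, 7 with Aquantile, 7 with no normalization between arrays, 23 with the trend, 25 at the adjusted p, 8 with the replicate block and 5 to 9 with 1 array left out. The 14 lower were 4, 5 and 7 with an offset of 0, subtraction and processed signals and 3 to 11 with 1 array left out.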
